A study of Mus musculus with 20 samples.

Results

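The interleukin-1 (IL-1) family and inflammasome transcripts described here were 9 genes taken from a fixed list of symbols: *Il1a*, *Il1b*, *Il18*, *Il1rn*, *Il1r2*, *Il1rap*, *Nlrp3*, *Pycard* and *Casp1*. All 9 of the 9 symbols were found among the 16810 genes of the table, and they were followed over all 7 groups. Cells were eGFP-high microglia sorted by flow cytometry from adult (12 weeks old) heterozygous CX3CR1+/eGFP mice. Sequencing covered polyadenylated RNA. There were 3 samples from non-injured mice (NI). Mice with a lateral hemisection (HS) were sampled at 72 h (3 samples), 1 week (HS 1w, 2 samples) and 2 weeks (HS 2w, 3 samples), and mice with a full transection (FT) at the same times with 3 samples per time. Lesions were made at the ninth thoracic level, and a segment of 1 cm around the lesion, or the matching segment in NI, was dissociated. In every group, NI included, 1 allele of *Cx3cr1* was replaced by eGFP. Peripheral monocytes carry the reporter too, so the sort does not by itself separate them from resident microglia. In a parallel experiment on NI and HS mice, the study found eGFP-high cells negative for LY6C, which inflammatory monocytes carry at high level. The study proposes that most sorted cells were microglia and does not exclude infiltrating macrophages. The study's methods call the replicates biological and name many more mice than libraries, but how the mice were divided among libraries is not stated, so p-values measure the spread between these libraries.

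IL-1 alpha and IL-1 beta are the classic agonists of the IL-1 receptor and are among the main early inflammatory cytokines of the injured spinal cord. Their signal needs the receptor and its accessory chain, and is held back by a secreted antagonist that occupies the receptor and by a decoy receptor that binds the agonists without signaling. IL-1 beta and IL-18 are made as inactive precursors that caspase-1 cuts once the NLRP3 sensor and the adaptor ASC have assembled an inflammasome, a step that RNA levels do not measure.

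*Il1a* (chromosome 2 of GRCm38, 129299610 to 129309972, minus strand) and *Il1b* (chromosome 2, 129364570 to 129371139, minus strand) are neighbours, and *Il1rn* lies elsewhere on chromosome 2 (24336853 to 24351494, plus strand). *Il1r2* lies on chromosome 1 (40074079 to 40125231), *Il1rap* on chromosome 16 (26581704 to 26730117), *Nlrp3* on chromosome 11 (59541568 to 59566956), *Pycard* on chromosome 7 (127989708 to 127993867), and *Il18* (50554827 to 50581840) and *Casp1* (5298517 to 5307265) on chromosome 9. The annotation places a transcript on the opposite strand over 222 exonic bases of *Il1a*, 25 of *Il1b*, 552 of *Il1rap* and 485 of *Pycard*. The counting is not stated to use strand, so reads of these pairs cannot be told apart there.

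Depth ranged from 3.87 to 34.1 M reads on genes per sample (median 10.1 M), and a single read was worth 0.0330 to 0.292 CPM. CPM here is the deposited count after the authors' normalization. Columns summed to 777426 to 830481 CPM in NI and 878070 to 1.20219e+06 CPM after injury, so they do not share a common total. Levels, and statements that samples lay above or below NI, hold on this deposited scale. Where samples of single groups are said to lie outside NI, the share of all genes was not computed. The lowest count of any of the 9 genes was 4 reads (*Il1r2*), the other 8 genes had at least 61 reads in every sample, and counting error is the only error that such depths describe. Microglial markers summed to between 22061 and 42073 CPM in every sample, led by *Csf1r*. The 8 monocyte markers summed to 43.3 to 49.3 CPM in NI and 209 to 1189 CPM after injury, led by *Fn1*, and the highest sum was that of FT 72 h replicate 1. The 12 neutrophil markers summed to 468 to 1096 CPM over all samples, of which *Csf3r*, which microglia also express, gave most. Lymphocyte markers summed to at most 16.7 CPM, astrocyte markers to at most 584 CPM and neuron markers to at most 51.7 CPM, whereas oligodendrocyte markers summed to 376 to 2388 CPM, led by *Mbp*. Border macrophage markers summed to 195 to 214 CPM in NI and 37.6 to 65.7 CPM at 2 weeks after either injury. In bulk samples, fewer cells of a type and less RNA per cell cannot be told apart.

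A gene was called when it changed by 2-fold or more with an adjusted p (Benjamini-Hochberg, over 16810 genes) below 0.05 in the limma fit over all 20 samples. Compared with NI, 2 of the 9 genes were called higher at 72 h after HS (13.4% of all genes were called in either direction), 1 at 1 week (2.18%) and 1 at 2 weeks (3.23%). After FT, 2 of 9 were called higher at 72 h (12.2% of all genes), 1 at 1 week (4.05%) and 1 at 2 weeks (4.88%). The gene called in all 6 comparisons was *Il1rn*, and the second gene at 72 h was *Pycard*. None was called lower. All 6 comparisons share the 3 NI samples. The median log2 fold change of the 9 genes was 0.53, 0.54 and 0.27 at HS 72 h, HS 1w and HS 2w and 0.36, 0.14 and 0.42 at the matching times of FT, while the median over all genes lay between -0.11 and 0.02.

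**Figure D1:**
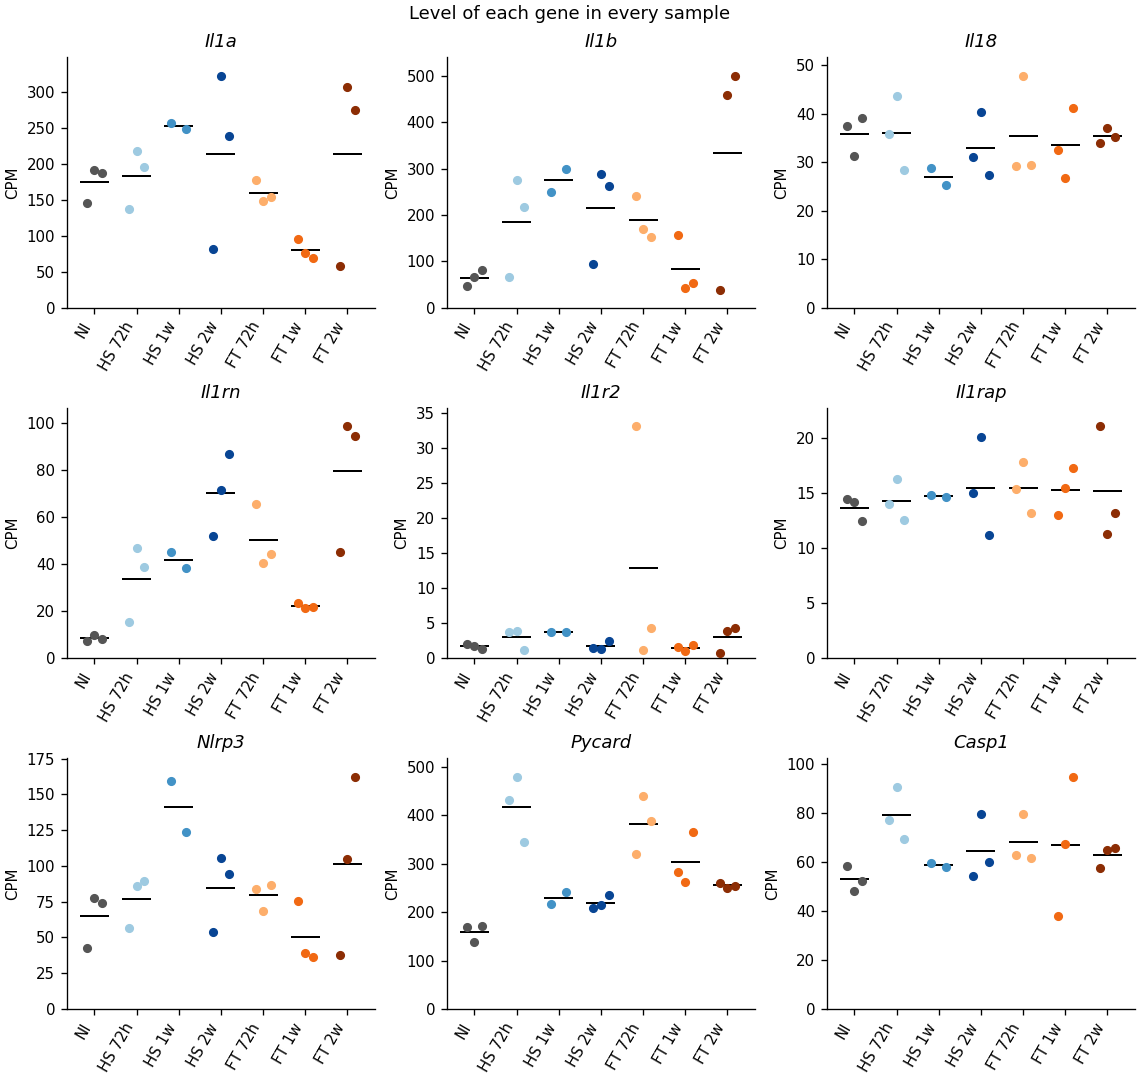
Level of each of the 9 genes in CPM (vertical axes, linear from 0) in every sample of the 7 groups. Points are samples and bars are group means. All injured samples of *Il1rn* (15.6 CPM or more) and *Pycard* (208 CPM or more) lie above the NI samples, while *Il1a*, *Il1b* and *Nlrp3* spread widely within HS 2w and FT 2w.

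*Il1rn*, which encodes the IL-1 receptor antagonist, rose at every time after both injuries. In NI it had 7.33, 10.04 and 8.15 CPM. After HS it had 15.6, 46.8 and 39.0 CPM at 72 h, 45.1 and 38.4 CPM at 1 week, and 52.1, 71.8 and 87.2 CPM at 2 weeks. After FT it had 65.5, 40.6 and 44.4 CPM at 72 h, 23.7, 21.4 and 22.0 CPM at 1 week, and 45.4, 98.8 and 94.7 CPM at 2 weeks. All 17 of 17 injured samples lay above the highest NI sample, which was so for 4.94% of all genes. The log2 fold change from NI was 1.80 at 72 h (standard error 0.33, adjusted p = 0.000318), 2.24 at 1 week (0.37, 0.000746) and 2.96 at 2 weeks (0.33, 2.9e-06) in HS. In FT it was 2.47 at 72 h (adjusted p = 1.05e-05), 1.35 at 1 week (adjusted p = 0.012) and 3.08 at 2 weeks (adjusted p = 1.15e-06), each with a standard error of 0.33. The means were 3.48-fold, 4.71-fold and 7.76-fold that of NI after HS and 5.55-fold, 2.55-fold and 8.47-fold after FT on this scale. The summed monocyte markers were also higher in all injured groups (209 CPM or more, against 49.3 CPM or less in NI), and *Fn1* gave most of the sum after injury. The mean log2 level of the 8 markers was 1.84 to 2.01 in NI and 2.45 to 4.94 after injury. Not every marker followed: *Ccr2* had means of 20.7 CPM at HS 2w and 17.8 CPM at FT 2w, against 18.0 CPM in NI. The sums were highest at 72 h (555 to 1189 CPM after FT, 594 to 761 CPM after HS). *Il1rn* had its highest group means at 2 weeks (79.6 ± 29.7 CPM after FT and 70.4 ± 17.6 CPM after HS, SD, n = 3 each). The part of monocytes in the rise of *Il1rn* was not tested. The call at 1 week after FT was lost without NI replicate 1 (log2 fold change 1.26, adjusted p = 0.0566).

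*Il1b*, the agonist cut by caspase-1, had 46.0, 65.2 and 82.1 CPM in NI. After HS it had 65.9, 275 and 217 CPM at 72 h, 250 and 300.1 CPM at 1 week, and 94.7, 288 and 263 CPM at 2 weeks. After FT it had 242, 171 and 154 CPM at 72 h, 156, 42.5 and 53.4 CPM at 1 week, and 38.4, 460 and 501 CPM at 2 weeks. In each of HS 72 h, HS 2w and FT 2w, replicate 1 was far below the other two samples, and 13 of 17 injured samples lay above the highest NI sample. The log2 fold change from NI was 1.32 (standard error 0.71), 2.12 (0.79) and 1.61 (0.71) at HS 72 h, HS 1w and HS 2w, and 1.55, 0.17 and 1.72 at FT 72 h, FT 1w and FT 2w (0.71 each). None of these 6 passed the test (adjusted p between 0.115 and 0.939). The fit shares 1 estimate of the spread over all groups, while the highest sample was 1.2 times the lowest at HS 1w, 1.57 times at FT 72 h and 13.1 times at FT 2w. The 95% interval of the change at FT 2w ran from 0.25 to 3.19 on the log2 scale and holds both a small and a large rise. The result depended on how the spread was estimated. When NI and 1 injured group alone entered the fit, *Il1b* was called higher at HS 72 h (adjusted p = 0.0232, 14.1% of all genes called), HS 1w (2.94e-05, 3.88%), HS 2w (0.0175, 3.5%) and FT 72 h (0.000781, 12.6%). On the recovered reads, the edgeR quasi-likelihood test called it higher at FT 2w (log2 fold change 2.37, adjusted p = 0.024), with 5.34% of all genes called, and the edgeR likelihood ratio test also called it at HS 72 h (1.53, adjusted p = 0.0469). Without FT 2w replicate 1, the lowest sample of that group, limma called it there too (2.93, adjusted p = 0.00132).

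*Il1a*, the agonist that needs no caspase-1, was already abundant in NI, with 145, 191 and 187 CPM. It had 137, 218 and 196 CPM at HS 72 h, 256 and 248 CPM at HS 1w, and 82.0, 322 and 238 CPM at HS 2w. It had 178, 148 and 154 CPM at FT 72 h, 94.8, 75.4 and 68.5 CPM at FT 1w, and 58.3, 307 and 274 CPM at FT 2w. The 3 samples of FT 1w all lay below NI, and the other groups overlapped NI or lay above it. The log2 fold change at FT 1w was -1.13 (standard error 0.46, adjusted p = 0.169), and the other 5 changes from NI lay between -0.12 and 0.54 (adjusted p of 0.767 or more). The change at FT 1w passed the test when columns were scaled to the same total (-1.48, adjusted p = 0.0434) and with only FT 1w and NI in the fit (adjusted p = 0.0153).

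*Il18*, the other cytokine processed by caspase-1, stayed within 25.4 to 47.9 CPM in all 20 samples. Its mean was 35.9 ± 4.11 CPM in NI (SD, n = 3) and between 27.1 and 36.0 CPM in the injured groups. None of the 6 changes from NI passed the test, with log2 fold changes between -0.40 and -0.01. At 72 h the 95% interval ran from -0.46 to 0.44 after HS and from -0.50 to 0.40 after FT, which leaves out a 2-fold change in either direction.

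**Figure D2:**
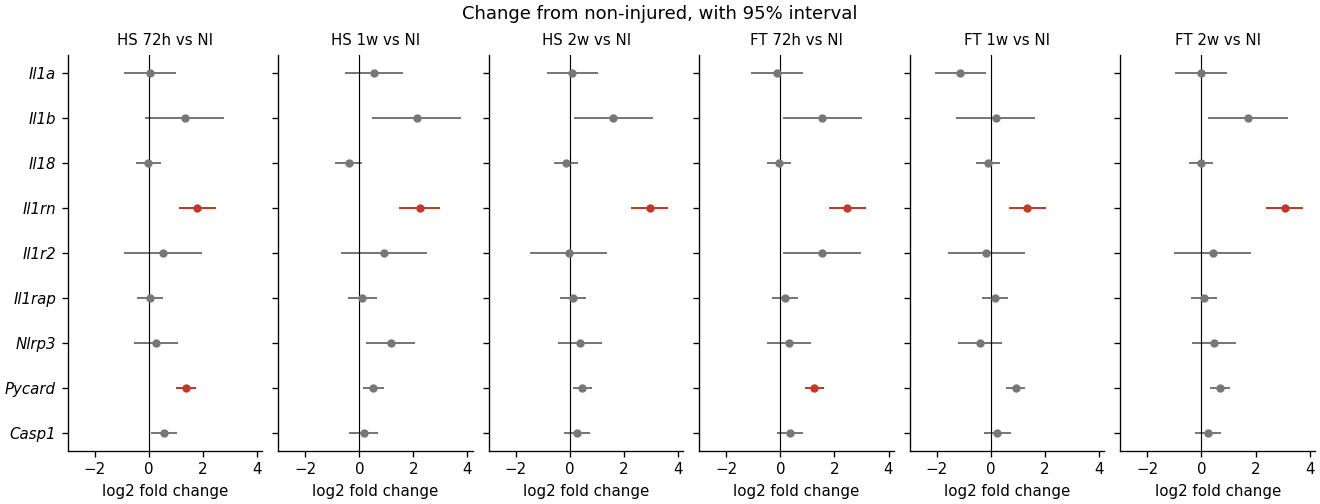
Log2 fold change from NI (horizontal axes) of the 9 genes in each injured group, with the 95% interval of the limma fit. Red points passed the adjusted p and 2-fold limits: *Il1rn* in all 6 groups and *Pycard* at 72 h. The intervals of *Il1b*, *Il1r2* and *Il1a* are the widest.

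The balance of antagonist and agonist transcripts was read as a ratio of CPM within each sample, which does not depend on how the columns were scaled and compares samples, not the levels of the 2 genes; no test was made. *Il1rn* was 0.0504, 0.0527 and 0.0436 of *Il1a* in the NI samples. After injury the ratio of *Il1rn* to *Il1a* was 0.114 to 0.215 at HS 72 h, 0.155 and 0.176 at HS 1w, 0.223 to 0.635 at HS 2w, 0.275 to 0.368 at FT 72 h, 0.250 to 0.321 at FT 1w and 0.322 to 0.778 at FT 2w. Every injured sample was above every NI sample in this ratio. The ratio of *Il1rn* to *Il1b* was 0.0993 to 0.159 in NI and overlapped NI in HS 1w (0.128 and 0.18) and in FT 1w (0.152 to 0.503). The highest value of this ratio was 1.18, in FT 2w replicate 1, where *Il1b* was at 38.4 CPM. *Il1b* was 0.316 to 0.439 of *Il1a* in NI and 0.482 to 1.83 of it in the injured samples, so this ratio too was higher in every injured sample than in NI.

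**Figure D3:**
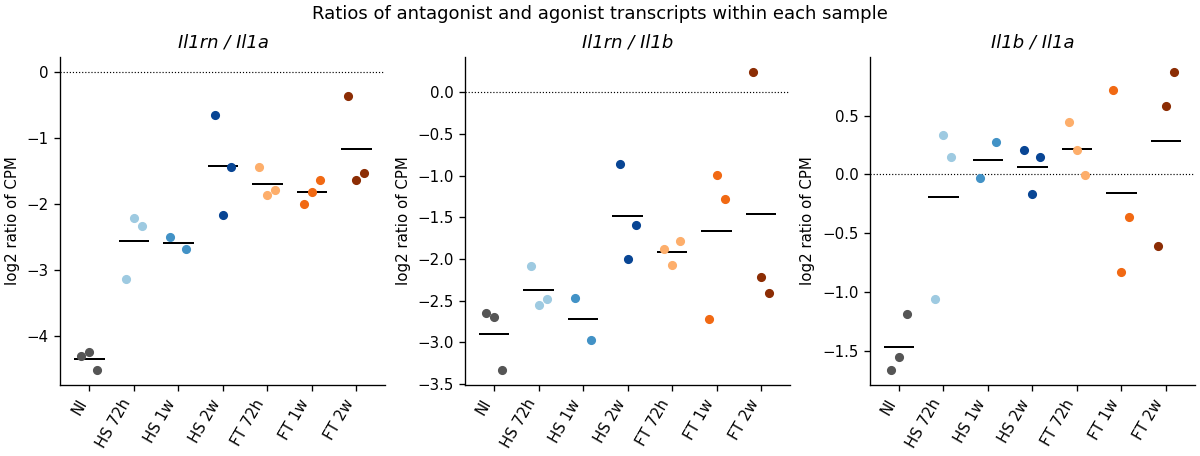
Log2 ratio of CPM within each sample for *Il1rn* to *Il1a*, *Il1rn* to *Il1b* and *Il1b* to *Il1a* in the 7 groups. Points are samples, bars are group means, and the dotted line marks equal CPM, which is not an equal level per length. For *Il1rn* to *Il1a*, the NI samples lie between -4.52 and -4.25 and the injured samples between -3.13 and -0.36.

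Of the receptor transcripts, *Il1r2*, which encodes the decoy receptor, had the lowest level of the 9 genes in NI, in CPM and per length, and *Il1rap*, which encodes the accessory chain, differed little between groups. *Il1r2* lay between 1.34 and 2.09 CPM in NI, and 16 of the 17 injured samples had 0.749 to 4.35 CPM. The remaining sample, FT 72 h replicate 1, had 33.1 CPM, against 1.17 and 4.27 CPM in the other two samples of its group. The log2 fold change at FT 72 h was 1.54 (standard error 0.69, adjusted p = 0.11), while the edgeR quasi-likelihood test on reads gave 2.90 (adjusted p = 0.00564, with 13.2% of all genes called). Without FT 72 h replicate 2, the lowest of the group, limma gave 2.51 (adjusted p = 0.00663), and without replicate 1 it gave 0.35 (adjusted p = 0.69), so the change rested on replicate 1. The edgeR fit was not repeated without it. FT 72 h replicate 1 was also the sample with the highest summed monocyte markers (1189 CPM, against 555 and 585 CPM in the other two), of border macrophage markers (325 CPM, against 159 and 141 CPM) and of *Ccr2*, at 166 CPM. The 12 neutrophil markers had a mean log2 level of 2.87 in it, against 1.75 and 2.20 in the other two, with sums of 520 CPM against 529 and 633 CPM. The part of these cells in the *Il1r2* level was not tested. *Il1rap* had 12.5 to 14.4 CPM in NI and 11.2 to 21.1 CPM after injury, and its log2 fold changes from NI lay between 0.05 and 0.16 (adjusted p of 0.644 or more).

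*Pycard*, which encodes the inflammasome adaptor ASC, rose at 72 h and stood lower at later times after HS. It had 168, 139 and 171 CPM in NI, 431, 480 and 345 CPM at HS 72 h, and 321, 439 and 389 CPM at FT 72 h. It had 216 and 241 CPM at HS 1w, 208, 215 and 235 CPM at HS 2w, 282, 262 and 365 CPM at FT 1w, and 260.1, 250.5 and 254.9 CPM at FT 2w. As for *Il1rn*, all 17 injured samples lay above all NI samples on the deposited scale. NI columns had lower totals than injured columns on that scale, and the separation was not rechecked with equal totals. The log2 fold change from NI was 1.38 at HS 72 h (standard error 0.17, adjusted p = 4.98e-06) and 1.26 at FT 72 h (0.17, 1.81e-05). At FT 1w (0.92, adjusted p = 0.00166) and FT 2w (0.68, adjusted p = 0.0142) it passed the adjusted p but not the 2-fold limit, and at HS 1w (0.52, adjusted p = 0.2) and HS 2w (0.47, adjusted p = 0.154) it passed neither. The summed monocyte markers, which were mostly *Fn1* after injury, had 555 to 1189 CPM at 72 h, 209 to 499 CPM at later times and at most 49.3 CPM in NI. Of the 8 markers, 4 were called higher at HS 72 h and 6 at FT 72 h, and their part in the rise of *Pycard* was not tested. Without FT 1w replicate 2 the change at FT 1w was just past 2-fold (1.01, adjusted p = 0.00194). Scaling the columns to the same total lowered the changes at 72 h to 0.87 after HS and 0.79 after FT, and quantile normalization lowered them to 0.94 and 0.84. Both are below 2-fold, with adjusted p of 0.000603 or less.

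*Nlrp3*, which encodes the sensor, had 42.8, 77.7 and 74.4 CPM in NI. It had 56.8, 85.7 and 89.2 CPM at HS 72 h, 159 and 124 CPM at HS 1w, 53.9, 106 and 94.3 CPM at HS 2w, 83.9, 68.6 and 86.6 CPM at FT 72 h, 75.8, 39.0 and 36.6 CPM at FT 1w, and 37.4, 105 and 162 CPM at FT 2w. Both HS 1w samples lay above NI, and the other groups overlapped NI. Its log2 fold change was 1.15 at HS 1w (standard error 0.44, adjusted p = 0.214) and between -0.39 and 0.45 elsewhere, and none passed the test. With only HS 1w and NI in the fit it was called higher there (adjusted p = 0.00694). *Casp1*, which encodes caspase-1, had 48.1 to 58.2 CPM in NI and group means of 58.8 to 79.1 CPM after injury. Its largest change was 0.57 at HS 72 h (95% interval 0.08 to 1.06, adjusted p = 0.075). Its 3 samples at HS 72 h had 69.3 to 90.8 CPM, above all NI samples, and the FT 1w samples had 38.1 to 94.8 CPM, on both sides of NI.

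Levels were compared between genes only per length, as CPM per kilobase of annotated exons. In NI the order of the means was *Il1a* (88.3), *Pycard* (42.0), *Casp1* (35.3), *Il18* (34.9), *Il1b* (33.8), *Nlrp3* (16), *Il1rn* (1.54), *Il1rap* (1.2) and *Il1r2* (0.914). The NI samples of *Pycard*, *Casp1*, *Il18* and *Il1b* overlapped, so their order does not exceed the spread. At FT 2w *Il1b* had the highest mean, at 175 CPM per kilobase, against 108 for *Il1a* and 67.2 for *Pycard*, but its samples there ran from 20.1 to 263 CPM per kilobase. *Il1rn* stayed below *Il1b* per length in every group mean, at 14.4 against 175 CPM per kilobase at FT 2w. The exonic lengths cover all annotated isoforms of a gene, with 5.535 kb for *Il1rn*, 3.8 kb for *Pycard* and 11.36 kb for *Il1rap*. Their level per length is therefore lower than that of a single shorter isoform would be, and the order of the genes depends on these lengths.

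The time course was then compared within each injury. After HS, 0 of the 9 genes were called between 1 week and 72 h (6.03% of all genes), 1 between 2 weeks and 72 h (4.74%) and 0 between 2 weeks and 1 week (0.0119%). At an unadjusted p under 0.05, limma gave 1, 2 and 0 of the 9 genes in these comparisons, among 4506, 4310 and 789 of all 16810 genes. The edgeR and DESeq2 tests called 0, 1 and 0. After FT, 1 of 9 was called between 1 week and 72 h (3.44% of all genes), 0 between 2 weeks and 72 h (3.81%) and 1 between 2 weeks and 1 week (0.0714%). For 2 weeks against 72 h after FT, 1 of the 9 genes had an unadjusted p under 0.05 by limma, among 3286 of all 16810 genes. For this comparison edgeR and DESeq2 called 0 of the 9. *Il1rn* was the gene called each time. After HS it was higher at 2 weeks than at 72 h (log2 fold change 1.16, standard error 0.33, adjusted p = 0.0271). After FT it fell by 1.12 on the log2 scale from 72 h to 1 week (adjusted p = 0.0492) and rose by 1.73 from 1 week to 2 weeks (adjusted p = 0.0426). These time calls rested on single samples: each was lost when any of several samples was left out. For 2 weeks against 72 h after HS the value without HS 72 h replicate 1 was 0.68 (adjusted p = 0.219), without HS 2w replicate 2 it was 1.13 (0.07) and without HS 2w replicate 3 it was 0.99 (0.107). For 1 week against 72 h after FT, leaving out any 1 of the 6 samples ended the call, with changes from -1.25 to -0.91 and adjusted p from 0.0617 to 0.192. For 2 weeks against 1 week after FT, the call ended without any 1 sample other than FT 2w replicate 1, with changes of 1.53 to 1.77 and adjusted p from 0.0593 to 0.289, and it ended with replicate number as a block (adjusted p = 0.0513). *Pycard* was lower at 1 week (-0.86, adjusted p = 0.00701) and 2 weeks (-0.92, adjusted p = 0.00151) than at 72 h after HS, both within 2-fold, and the latter passed 2-fold without HS 72 h replicate 3 (-1.05). After FT its change from 72 h was -0.34 at 1 week (adjusted p = 0.284) and -0.57 at 2 weeks (adjusted p = 0.0545). *Il1a* and *Il1b* were called higher at FT 2w than at FT 1w when FT 2w replicate 1 was left out (1.87 and 2.75, adjusted p = 0.0392 and 0.0437).

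FT and HS were compared at each time. limma called 0 of the 9 genes at 72 h, 1 week and 2 weeks, and 0% of all genes at each time. At an unadjusted p under 0.05 there were 0, 4 and 0 of the 9 genes, among 505, 724 and 438 of all genes, and the edgeR tests and DESeq2 called 0 of the 9 at each time. The 4 genes at 1 week were *Il1a*, *Il1b*, *Il1rn* and *Nlrp3*, for which FT minus HS was -1.67, -1.95, -0.88 and -1.55 on the log2 scale (adjusted p of 0.983 or more). For each of these 4 genes the FT and HS samples did not overlap (68.5 to 94.8 CPM against 248 and 256 CPM for *Il1a*). The HS group held 2 samples, and the share of all genes without overlap was not computed. As deviations from group means, these 4 genes also varied together, with r from 0.72 to 0.91 between pairs, so they are not separate results. FT 1w replicates 2 and 3 are among the samples of low immediate-early level described below. The 95% interval of the *Il1a* difference ran from -2.74 to -0.60, so a p that misses the threshold does not show that the injuries acted alike. At 72 h the difference in *Il1rn* was 0.67 (95% interval -0.01 to 1.35).

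*Il1a*, *Il1b* and *Nlrp3* varied together within groups, and so did the immediate-early genes, which are transcribed quickly and for a short time after many kinds of stimulus. The mean log2 level of 10 immediate-early genes, led by *Fos*, was 5.51 and 6.15 in FT 1w replicates 3 and 2, 5.64 in FT 2w replicate 1 and 6.87 in HS 2w replicate 1. In the other 16 samples it was 7.44 to 9.16. In each of these groups the samples that stood low had less *Il1a*, *Il1b* and *Nlrp3* than the remaining samples. Deviations from group means were correlated over 20 samples with Pearson's r and Spearman's rho, and p-values were adjusted over 9 genes. For *Il1a* r was 0.86 (permutation p = 0.0057, adjusted 0.0171) and rho 0.87 (p = 0.00362, adjusted 0.0116). For *Il1b* r was 0.87 (permutation p = 0.0115, adjusted 0.0259) and rho 0.85 (p = 0.00599, adjusted 0.0135). For *Nlrp3* r was 0.90 (permutation p = 0.00171, adjusted 0.0143) and rho 0.93 (p = 0.00023, adjusted 0.00207). For *Il1rn* r was 0.59 (permutation p = 0.00319, adjusted 0.0143) and rho 0.63 (p = 0.00387, adjusted 0.0116). Without the 2 samples farthest from the median, r was 0.86 for *Il1a*, 0.77 for *Il1b*, 0.83 for *Nlrp3* and 0.51 for *Il1rn*. Within the 15 samples left without those 4 and without FT 1w replicate 1, the lone sample of its group, r was 0.32 for *Il1a* (permutation p = 0.386, adjusted 0.496), 0.32 for *Il1b* (permutation p = 0.474, adjusted 0.533), 0.60 for *Nlrp3* (permutation p = 0.113, adjusted 0.254) and 0.43 for *Il1rn* (permutation p = 0.253, adjusted 0.379), and rho was 0.26 for *Il1a* (adjusted permutation p = 0.519), 0.27 for *Il1b* (adjusted permutation p = 0.519), 0.60 for *Nlrp3* (adjusted permutation p = 0.167) and 0.57 for *Il1rn* (adjusted permutation p = 0.187). None of these passed the adjusted p, and for *Il1a* and *Il1b* the relation rests on the 4 samples. For the other 5 genes r lay between -0.68 and 0.29, with adjusted permutation p of 0.0902 or more for r and 0.0541 or more for rho. Among the genes themselves, *Il1a* and *Il1b* deviated together with r = 0.90 and rho = 0.93 over 20 samples (adjusted permutation p = 0.016 and 0.0181 over 36 pairs). *Il1b* and *Nlrp3* did so with r = 0.91 and rho = 0.88 (adjusted permutation p = 0.0176 and 0.0187). Without the 2 farthest samples r was 0.85 and 0.86, and without the 4 samples it was 0.84 and 0.64 (adjusted permutation p = 0.157 and 0.254).

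**Figure D4:**
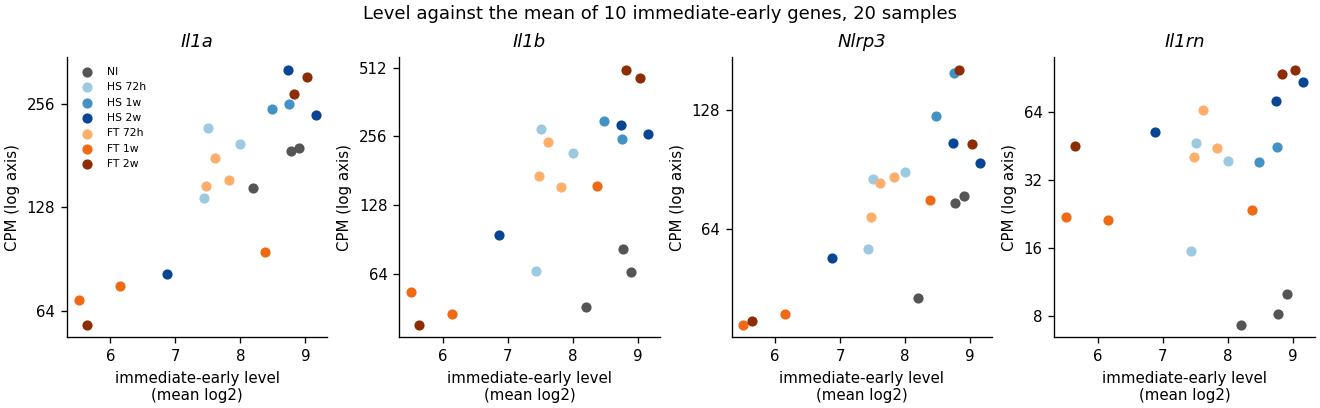
Level of *Il1a*, *Il1b*, *Nlrp3* and *Il1rn* in CPM (vertical log axes) against the mean log2 level of 10 immediate-early genes, for 20 samples coloured by group. The 4 samples below 7 on the horizontal axis have low *Il1a*, *Il1b* and *Nlrp3*, whereas their *Il1rn* lies above all NI samples, which sit at 8.20 to 8.90 with 7.33 to 10.04 CPM.

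Without these 4 samples, a choice made after seeing the data, *Il1b* passed the test at HS 2w (log2 fold change 2.12, adjusted p = 0.00306, 3.11% of all genes called) and at FT 2w (2.93, adjusted p = 0.000101, 4.72%). *Nlrp3* passed at FT 2w (1.05, adjusted p = 0.0153), and *Il1rn* remained higher at HS 2w (3.16) and FT 2w (3.44). Leaving out samples of low immediate-early level also leaves out samples of low *Il1b*, so the larger change is in part set by the choice. NI had mean log2 immediate-early levels of 8.20 to 8.90 and 46.0 to 82.1 CPM of *Il1b*. The correlation of deviations was tested above, but whether these genes have a part in the spread of *Il1b* was not tested.

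The promoters of both agonists and of *Pycard* are shown because *Il1a* and *Il1b* varied together while *Pycard* did not vary with them (r = -0.08 with each, as deviations from group means). Each is the 250 bases before the start from RefSeq on GRCm38.p6, on the minus strand, with capitals for the letters of the motifs searched. The regions are chr2:129309973-129310222 for *Il1a*, chr2:129371140-129371389 for *Il1b* and chr7:127993868-127994117 for *Pycard*.
Il1a: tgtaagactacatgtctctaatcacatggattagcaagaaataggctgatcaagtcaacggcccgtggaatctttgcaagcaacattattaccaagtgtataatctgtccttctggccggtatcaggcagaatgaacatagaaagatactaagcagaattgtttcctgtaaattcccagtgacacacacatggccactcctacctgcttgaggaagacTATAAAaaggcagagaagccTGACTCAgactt
Il1b: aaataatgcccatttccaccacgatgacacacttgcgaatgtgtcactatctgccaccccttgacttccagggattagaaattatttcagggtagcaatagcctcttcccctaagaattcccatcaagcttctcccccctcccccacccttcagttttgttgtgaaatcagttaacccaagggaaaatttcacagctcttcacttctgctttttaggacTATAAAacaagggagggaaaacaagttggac
Pycard: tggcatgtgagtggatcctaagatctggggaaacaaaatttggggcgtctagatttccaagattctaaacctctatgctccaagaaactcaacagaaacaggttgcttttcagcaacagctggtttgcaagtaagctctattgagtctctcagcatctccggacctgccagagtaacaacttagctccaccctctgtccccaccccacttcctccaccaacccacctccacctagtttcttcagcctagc
Motifs were searched on both strands as the TATA box TATAAA, the AP-1 element TGANTCA, the cyclic AMP response element TGACGTCA and a loose form of the NF-kappaB element (3 G, 5 bases of any kind, then 2 C), and no match overlapped another in these windows. TATAAA stood at -32 to -27 from the start of *Il1a* and at -31 to -26 of *Il1b*, and 12.4% of the 32851 mouse promoters of the same length hold it. TGACTCA, a match of TGANTCA, stood at -12 to -6 of *Il1a*, and 6.75% of all promoters hold that motif. The NF-kappaB form, which 45.8% hold, and TGACGTCA, which 1.55% hold, were not in these windows, and none of the 4 was in that of *Pycard*. Among the 12 start sites matched for the 9 genes, the NF-kappaB form occurred for *Il1rn*, *Il1rap*, *Casp1* and *Nlrp3*, and TGANTCA also at -141 to -135 of 1 of the *Il1rn* starts. TATAAA also occurred on the opposite strand at -175 to -170 of *Il18*. It was not in the windows of *Nlrp3* or *Il1rn*. As deviations from group means, *Nlrp3* also varied with *Il1a* (r = 0.87) and *Il1b* (0.91), and *Il1rn* did so too (0.74 and 0.83). A match is a description of the letters, not of a bound site.

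The levels most like each of 8 of the 9 genes over the 20 samples, as Pearson's r of log2 values among 14051 genes with a mean of at least 1 CPM, differed between the cytokines and the inflammasome adaptor. For *Il1b* they were *Coq10b* (0.95), *Ptgs2* (0.93), which encodes the inducible cyclooxygenase, and *Osm* (0.93), which encodes oncostatin M. For *Il1a* they were *Adamts1* (0.91), *Nfkbiz* (0.90) and *Btg2* (0.90), and for *Nlrp3* they were *Adamts1* (0.92), *Tnfaip3* (0.90), which encodes the inhibitor A20, and *Tnf* (0.90). For *Il1rn* they were *Niacr1* (0.92), *Klrb1b* (0.90) and *Plaur* (0.89), and *Niacr1* and *Plaur* encode the niacin receptor and the urokinase receptor. For *Pycard* they were *Mrpl30* (0.97), *Rpl15* (0.97) and *Cisd3* (0.97), of which the first is a mitochondrial and the second a cytosolic ribosomal protein gene. For *Casp1* they were *Pdcd10* (0.95), *Mocs2* (0.94) and *Sar1b* (0.93), for *Il18* *Mitd1* (0.81), *Naa38* (0.80) and *Rfesd* (0.79), and for *Il1r2* *Traf1* (0.80), *Mefv* (0.80) and *Plbd1* (0.79). The 20 samples share groups and depth, so these values describe likeness and no test was made.

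Of 43 other genes of the pathway in the table, 2 were called at HS 72 h, FT 72 h and FT 1w (13.4%, 12.2% and 4.05% of all genes), 1 at HS 2w and FT 2w (3.23% and 4.88%) and 0 at HS 1w (2.18%). Among the 8 other receptors and decoys, 1 was called higher at HS 72 h, HS 2w, FT 72 h, FT 1w and FT 2w and 0 at HS 1w. None of the 10 genes of IL-1 receptor signaling (the MyD88, IRAK and TAK1 pathway), of the 12 other inflammasome sensors or of the 3 other ligands was called in any comparison with NI. Among the 10 genes of inflammasome activation and output, 1 was called lower at HS 72 h, FT 72 h and FT 1w. The median log2 fold change of the 43 genes lay between -0.07 and 0.18 in the 6 comparisons.

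*Il18bp*, which encodes the soluble protein that neutralizes IL-18, was called higher at HS 2w, FT 1w and FT 2w. It had 3.4, 4.89 and 4.12 CPM in NI, 6.71, 16.5 and 17.5 CPM at HS 2w, 11.5, 14.5 and 17.4 CPM at FT 1w, and 15.9, 17.4 and 17.7 CPM at FT 2w. These 9 samples lay above NI, with log2 fold changes of 1.5 (adjusted p = 0.00179), 1.69 (0.000476) and 1.93 (7.58e-05), while *Il18* itself did not pass the test in any group. On the deposited scale the samples of FT 72 h (7.74, 7.01 and 6.77 CPM) and HS 1w (8.03 and 8.18 CPM) lay above NI too, without a call. The share of all genes with such a separation in any of these groups was not computed. At HS 72 h *Il18bp* had 3.96, 6.78 and 5.74 CPM. *Il18bp* was higher at 2 weeks than at 72 h after HS (1.15, adjusted p = 0.0117) and FT (1.19, adjusted p = 0.0125). The first of these was lost without HS 72 h replicate 1 (0.95, adjusted p = 0.0896), HS 2w replicate 2 (0.96, 0.0626) or HS 2w replicate 3 (0.91, 0.072), and the second without FT 2w replicate 3 (1.16, 0.0533). *Sigirr*, which encodes an inhibitory receptor of the family, was called higher only at 72 h. It had 1.82 to 2.44 CPM in NI, 5.13 to 7.43 CPM at HS 72 h (1.30, adjusted p = 0.000248) and 6.43 to 9.17 CPM at FT 72 h (1.63, 2.37e-05). At later times it had 2.87 to 4.49 CPM, also above NI on the deposited scale. With that, all 17 injured samples of *Sigirr* lay above NI, which was so for 4.94% of all genes. It was lower at FT 2w than at FT 72 h (-1.23, adjusted p = 0.00165). With columns scaled to the same total its change at HS 72 h fell below 2-fold (0.86, adjusted p = 0.00678).

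*Txnip*, whose product binds thioredoxin and has been linked to NLRP3 activation, stood at 498 to 523 CPM in NI. It fell to between 189 and 287 CPM at HS 72 h (-1.05, adjusted p = 0.000678), 198 to 233 CPM at FT 72 h (-1.23, 0.000152) and 190 to 291 CPM at FT 1w (-1.05, 0.00212). All 17 injured samples lay below NI, and the share of all genes for which this was so was not computed. Scaling to the same total and quantile normalization also called it lower at HS 1w (-1.06 and -1.17), HS 2w (-1.04 and -1.12) and FT 2w (-1.29 and -1.35). The calls at HS 72 h and FT 1w ended, with adjusted p of 0.00845 and 0.00677, without HS 72 h replicate 1 (-0.85) and FT 1w replicate 1 (-0.87). *Il1r1*, which encodes the signaling receptor, had 3.47 to 4.83 CPM in NI and 3.71 to 10.6 CPM after injury, and its changes stayed within 2-fold (0.95 at FT 72 h, adjusted p = 0.0074, and 0.85 at both HS 2w and FT 2w, adjusted p = 0.0495 and 0.0335). *Casp4*, which encodes the caspase that senses lipopolysaccharide, had 31.3 to 80.4 CPM and *Gsdmd*, which encodes the pore protein cut by caspase-1, had 91.7 to 177 CPM over all 20 samples, and neither passed the test against NI.

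**Figure D5:**
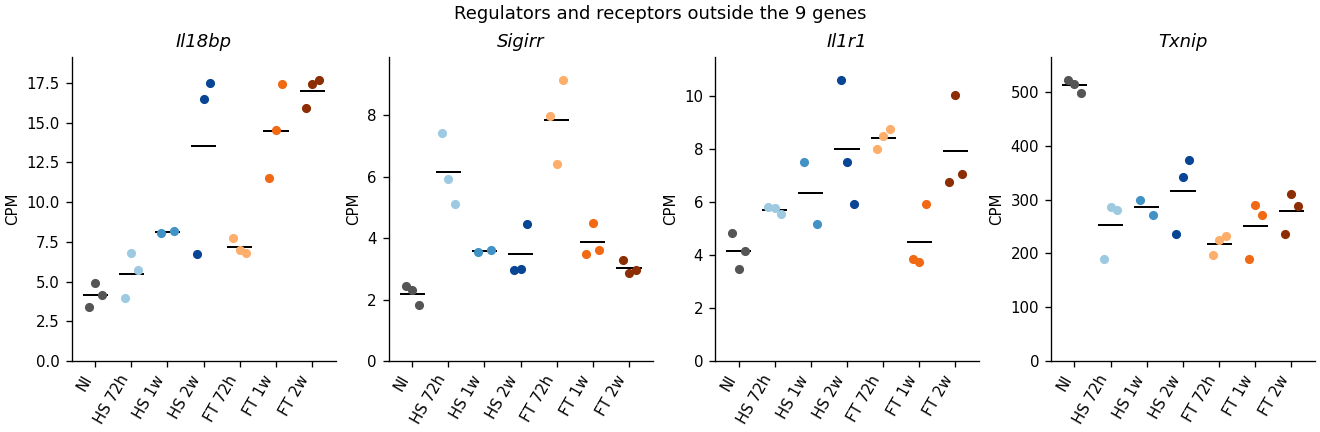
Level in CPM (vertical axes, linear from 0) of *Il18bp*, *Sigirr*, *Il1r1* and *Txnip* in every sample of the 7 groups. Points are samples and bars are group means. *Il18bp* lies above NI in all samples of HS 1w, HS 2w, FT 72 h, FT 1w and FT 2w (6.71 to 17.7 CPM), *Sigirr* is highest at 72 h (5.13 to 9.17 CPM), and *Txnip* is below NI in all injured samples.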

How the data were processed

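Reads of 20 samples (7 groups, from the labels) were trimmed with FASTX-Toolkit, mapped by the authors with TopHat2 2.0.9 to mm10 (GRCm38) and counted per gene with HTSeq 0.5.4p3. Genes with 10 counts in at least 2 replicates were kept and normalized by library size with edgeR 3.3.6. The deposited signal is that normalized count in CPM: 100% of 336200 values were whole multiples of 1 read within 0.001 read, so reads were recovered. Replicates differed by more than sampling noise. Values plus 0.5 were taken to log2 and fitted with limma 3.58.1 (intensity trend, 1 mean per group, all 20 samples). Fold changes are on this scale and understate low genes. Counts were also tested with edgeR 4.0.16 and DESeq2 1.42.0 (R 4.3.3), and fits were tested on simulated data. Samples with the same number were checked for pairing: deviations of all 3 pairs correlated over 0.1 in 1 of 15 comparisons (FT versus HS at 72 h), so numbers may mark pairs there, and the block left 0 of 9 genes called in it. Correlations used 100000 permutations within groups (Python 3.11.15), two-sided. Positions and exonic lengths are from GENCODE vM21. The 9 genes and all lists were chosen with earlier results of these data known. Beyond the 9, pathway genes called against NI, 4 genes needed for their role, the 3 genes most like each (not reported here for *Il1rap*) and the leading markers are named; *Ccr2* was named after its values were seen. Alternatives were another value added, filters, scalings, tests, a replicate block and leaving out each sample. Strandedness and batches are not given in the sources used here.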

Additional observations from a re-analysis of the deposited data

Results flagged for a closer look

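The change of 3 transcripts differed between times after injury by a direct test, in which the shared NI samples cancel. *Il1rn* was higher at 2 weeks than at 72 h after HS (log2 difference 1.16), lower at 1 week than at 72 h after FT (-1.12) and higher at 2 weeks than at 1 week after FT (1.73). *Il18bp* was higher at 2 weeks than at 72 h after HS (1.15) and after FT (1.19). *Sigirr* was lower at 2 weeks than at 72 h after FT (-1.23). The 3 differences of *Il1rn* and the 2 of *Il18bp* were each lost when some single samples were left out, and the difference between the injuries in these time courses was not tested.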

How the results depend on the processing

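No value of the 9 genes changed direction among those called: of 2349 values under alternatives, 2291 stayed on their side of the threshold, 27 lost and 31 gained the call, and 0 reversed. For *Il18bp*, *Sigirr* and *Txnip* together, 8 of 783 lost and 18 gained it. Of the 9 genes, the number called moved as follows. The share of all genes called is given where it was computed, and a count without it cannot be set against all genes. Scaling to the same total gave 1 (*Pycard* lost) at HS 72 h and FT 72 h, 2 at FT 1w, and 0 for FT 1w against 72 h and FT 2w against 1w; it moved the median of all genes by -0.42 to -0.19 against NI. Quantile normalization gave 1 at HS 72 h and FT 72 h and 0 for the same comparisons of times. With only the groups compared in the fit, 3 were called at HS 72 h (14.1% of all genes), HS 1w (3.88%) and FT 72 h (12.6%) and 2 at HS 2w (3.5%). That fit also gave 2 at FT 1w, 2 for FT 1w against 72 h and 0 for FT 2w against 1w. With no fold limit, 2 were called at FT 1w, 2 at FT 2w, 1 for HS 1w against 72 h and 2 for HS 2w against 72 h. The edgeR quasi-likelihood and likelihood ratio tests and DESeq2 each called 3 at FT 72 h (*Il1r2* added) and 2 at FT 2w (*Il1b* added). Each also called 2 for FT 1w against 72 h (*Il1r2* added), and the likelihood ratio test called 3 at HS 72 h (*Il1b* added). Of all genes, the quasi-likelihood test called 13.2% at FT 72 h and 5.34% at FT 2w. Adding 0.1 CPM gave 0 for FT 1w against 72 h. With the replicate block, FT 2w against 1w gave 0 and no other count changed; the numbers do not pair the samples elsewhere (r from -0.39 to 0.38). Without the 4 samples of low immediate-early level, chosen after seeing the data, 2 were called at HS 2w (3.11% of all genes) and 3 at FT 2w (4.72%). For FT 2w against 72 h, 1 was called (*Il1b*). FT 1w then holds 1 sample, assumed to vary like the other groups, so counts for its comparisons are not given. The log2 difference of *Il1a* between FT and HS at 1 week was -1.41 there. Leaving out 1 sample at a time gave 0 to 2 at FT 1w, 1 to 2 at FT 2w, 2 to 3 at FT 72 h, 0 to 2 for HS 2w against 72 h, 0 to 1 for FT 1w against 72 h and 0 to 3 for FT 2w against 1w. *Il1r2* at FT 72 h was also called without FT 72 h replicate 2 (2.51, adjusted p = 0.00663). Depth limits mainly *Il1r2*, with 4 reads in 1 sample; the other 8 genes had 61 reads or more in every sample, in groups of 2 or 3 samples.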
